A study of Mus musculus with 31 samples.

Results

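The secreted Wnt ligands, the frizzled receptors (Fzd), the LRP coreceptors and the secreted frizzled-related proteins were followed through mammary tumorigenesis driven by β-catenin, and in basal mammary cells lacking Myc. Members were the genes of these families whose symbol the array annotation attaches to a probe set, and all 36 were found, with 72 probe sets. They comprise 19 Wnt ligands, 10 frizzleds, 2 coreceptors and 5 secreted frizzled-related proteins (Sfrp1, Sfrp2, Sfrp4, Sfrp5 and Frzb), of 18193 genes that the array names by a single symbol.

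Wnt proteins are secreted lipid-modified ligands that bind a frizzled together with Lrp5 or Lrp6 at the cell surface. In the canonical pathway this binding stabilises β-catenin, which enters the nucleus and acts with TCF/LEF factors, whereas other Wnt proteins signal through frizzleds or the Ror and Ryk receptors without β-catenin. Secreted frizzled-related proteins carry a frizzled-like domain and bind Wnt proteins outside the cell, and Wnt signaling acts in branching and in stem cells of the mammary gland.

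K5ΔNβcat mice express an N-terminally truncated, stabilised form of β-catenin under the keratin 5 promoter, which is active in the basal cell layer, so that the transgene acts below the members studied here. Tissue came from control mammary glands (n = 4) and from small hyperplasias (n = 5), large hyperplasias (n = 5) and tumors (n = 11) of K5ΔNβcat females, the strain being given as C57BL6 in the labels and as a mixed 129SV/C57BL6 background in the methods. Basal cells (CD24+, CD49f high, with CD45 and CD31 antibodies in the sort) were isolated from mice in which K5Cre deletes Myc in the basal layer (K5creMycL/L, also written K5creL/L in the labels, n = 3) and from control mice (n = 3), each sample being a pool of several mice. The labels of the sorted cells name no ΔNβcat transgene, and no age is given for any array. It is not stated that each tissue sample came from a separate mouse, so the p-values reflect only how these samples spread, which may in part be technical. Values are MAS5 signals of Affymetrix Mouse Genome 430 2.0 arrays, and differences are log2 differences of the signal plus 16, tested with limma. Testing required a median of at least 30, the background level, in 1 of the groups compared, and a call an adjusted p under 0.05 over all probe sets. Each gene is represented by its brightest probe set.

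Signals of cell type markers in the tissue differed between the stages along with those of the members. Control tissue had a summed signal of 8 adipocyte markers between 55720 and 61394, small hyperplasias between 27079 and 35820, large hyperplasias between 20989 and 26897 and tumors between 1491 and 7097. Lep, which encodes leptin, was below 30 on every tumor array. For 6 basal epithelial markers, control tissue had sums of 1205 to 1651, small hyperplasias of 4859 to 6205, large hyperplasias of 5734 to 9727 and tumors of 9572 to 14781. For 8 endothelial markers, control tissue had sums of 1862 to 2062, small hyperplasias of 1065 to 1646, large hyperplasias of 718.4 to 969.2 and tumors of 608.6 to 1196. In such bulk tissue fewer cells of a type and less RNA per cell cannot be told apart, and the part of these shifts in the results below was not tested. Of the probe sets, 46.2% to 49.8% reached 30 on a tumor array and 49.9% to 51.9% on a large hyperplasia array. Small hyperplasias had 49% to 50% and control tissue 48% to 50.1%.

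Of the 36 members, 25 were bright enough to be tested in a tissue comparison and 11 were not. The 11 were Wnt1, Wnt2b, Wnt3, Wnt3a, Wnt7a, Wnt8a, Wnt8b, Wnt9b, Wnt10b, Wnt16 and Fzd9, and 9 of them stayed below 30 on all 25 tissue arrays. Wnt7a reached 30 on 3 arrays, with a highest signal of 40.3, and Fzd9 on 1 array, at 30.9. Wnt1, Wnt3a and Wnt10b, which are classical activators of the canonical pathway, were thus not measured above background here, which sets no limit on transcripts that these probe sets detect poorly.

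In tumors against control tissue, 9 members rose and 9 fell among 24 tested, which is 75% of them. Over all genes tested the share called was 71.8%, made up of 35.0% higher and 36.8% lower, so the members changed about as often as genes at large. Their median log2 difference was 0.17, against -0.02 over all genes. In large hyperplasias against control tissue 11 members rose and 4 fell among 25, 60% against 49.7% of all genes (26.8% higher, 22.9% lower), with a median of 0.35 against 0.04. In small hyperplasias 7 rose and 3 fell among 24, 41.7% against 34.6% of all genes (19.3% higher, 15.3% lower), with a median of 0.32 against 0.02. The 11 rises in large hyperplasias include Wnt10a, Fzd10 and Frzb, whose control medians were below 30. These passed the filter only through the lesions, as did Wnt10a and Fzd10 in tumors. With signals floored at 30, 9 members rose and 5 fell in large hyperplasias, and 8 rose and 9 fell in tumors. The comparisons share the 4 control samples and are given side by side.

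Among the ligands, 5 of the 9 tested rose and 2 fell in tumors, 77.8% against 71.8% of all genes. In hyperplasias of either size 4 rose and none fell, 44.4% against 49.7% of all genes in large and 34.6% in small hyperplasias. Wnt10a, a canonical ligand required for teeth and skin appendages, was below or near background in control tissue, at 32.9, 3.07, 20.8 and 17.0. It reached 51.1, 37.6, 59.5, 42.4 and 80.6 in small hyperplasias and 124, 119, 95.1, 73.9 and 76.3 in large hyperplasias. In tumors the lowest signal was 96.9, the median 128 and the highest 207. Every lesion of every stage lay above every control sample. The log2 difference was 2.17 ± 0.19 in tumors (adjusted p = 1.9e-10), 1.77 ± 0.22 in large hyperplasias (adjusted p = 3.7e-07) and 1.07 ± 0.22 in small hyperplasias (adjusted p = 0.00054; here and below errors of log2 differences are standard errors).

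**Figure D1:**
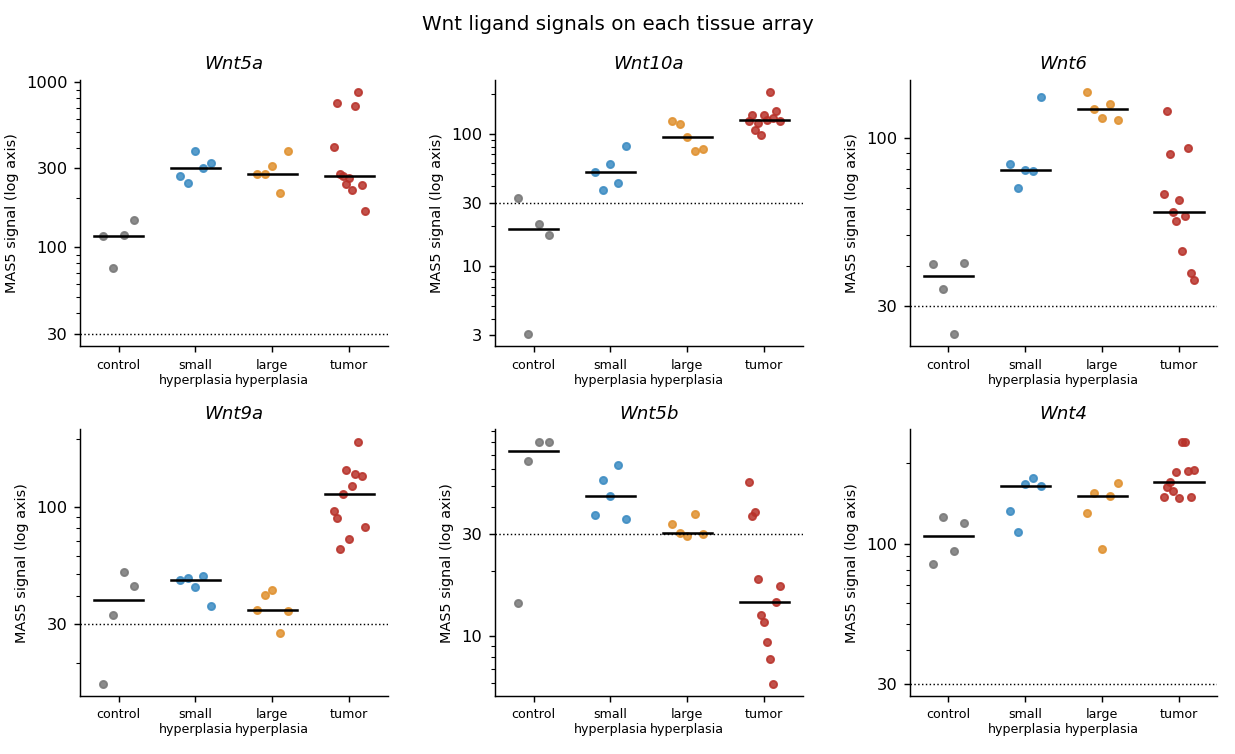
Signals of the Wnt ligands on each tissue array (log axis), in control tissue, small hyperplasias, large hyperplasias and tumors, with points for samples, black bars for medians and a dotted line at the background level of 30. Wnt10a lies between 3.07 and 32.9 in control tissue and between 96.9 and 207 in tumors, and Wnt9a is raised in tumors alone, between 64.8 and 196.

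Wnt9a, known for its role in joints and the skeleton, followed another course. Its signals were 16.2, 32.7, 51.0 and 44.2 in control tissue, 47.2, 48.2, 43.6, 49.1 and 35.9 in small hyperplasias and 34.5, 40.5, 42.3, 27.3 and 34.2 in large hyperplasias. Tumors ranged from 64.8 over a median of 114 to 196, and none overlapped with any earlier stage. The rise was 1.32 ± 0.20 against control tissue (adjusted p = 2.0e-06) and 1.28 ± 0.18 against large hyperplasias (adjusted p = 3.1e-06). Neither hyperplasia was called against control tissue, with log2 differences of 0.04 in large hyperplasias (adjusted p = 0.91) and 0.27 in small hyperplasias (adjusted p = 0.38).

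Wnt6 was highest in the large hyperplasias. Its signals were 40.7, 33.9, 24.5 and 40.8 in control tissue, 83.2, 69.9, 79.8, 78.9 and 134 in small hyperplasias, and 139, 123, 116, 128 and 114 in large hyperplasias. In tumors they were lower again, with a lowest of 36.0, a median of 58.7 and a highest of 122, overlapping with control tissue. Wnt6 rose by 1.47 ± 0.22 in large hyperplasias (adjusted p = 6.6e-06), by 1.03 ± 0.22 in small hyperplasias (adjusted p = 0.00091) and by 0.64 ± 0.19 in tumors (adjusted p = 0.0048). It was lower in tumors than in large hyperplasias, with a log2 difference of -0.83 ± 0.18 (adjusted p = 0.00034).

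Wnt5a, the prototype of ligands that signal without β-catenin, was raised from the first stage onward. Control tissue gave 117, 75.2, 118 and 146, small hyperplasias 269, 244, 381, 304 and 325, and large hyperplasias 279.6, 279, 311, 212 and 381. Tumors spread most widely, from 167 over a median of 271 to 872. No lesion overlapped with a control sample. The rise was 1.51 ± 0.31 in tumors (adjusted p = 0.00014), 1.25 ± 0.36 in large hyperplasias (adjusted p = 0.0058) and 1.31 ± 0.36 in small hyperplasias (adjusted p = 0.0068), and tumors were not called against large hyperplasias (0.26, adjusted p = 0.47). In tumors 2 further probe sets of Wnt5a rose too, by 1.56 and 0.90, whereas in large hyperplasias only one of the 3 others tested was called, at 0.89 (adjusted p = 0.044).

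Wnt5b, the close paralog of Wnt5a, moved the other way. Its signals were 14.2, 65.4, 80.6 and 79.9 in control tissue, 36.7, 53.2, 44.7, 62.8 and 35.2 in small hyperplasias and 33.4, 30.2, 29.3, 37.2 and 29.8 in large hyperplasias. In tumors the median was 14.3, with a lowest of 5.99 and a highest of 52.1. One control sample lay as low as the tumors. Wnt5b fell by 1.02 in tumors against control tissue (SE 0.27, adjusted p = 0.0016), with a second probe set at -1.09, and was not called in either hyperplasia.

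Wnt4, which acts downstream of progesterone in side branching of the mammary gland, was at 147 to 240.4 in tumors, against 83.5, 126, 93.6 and 119.7 in control tissue. The groups did not overlap, with a log2 difference of 0.68 ± 0.14 (adjusted p = 0.00014), but its second probe set was not called (-0.05, adjusted p = 0.77). Wnt4 rose by 0.45 in small hyperplasias (adjusted p = 0.037), a call that was lost without small hyperplasia 3, 4 or 5 or control 1 or 3 (adjusted p = 0.071 to 0.13) and that the second probe set did not share (-0.08, adjusted p = 0.73), and it was not called in large hyperplasias (0.35, adjusted p = 0.077). Wnt7b, a ligand of lung and kidney development, rose by 0.43 in large hyperplasias (adjusted p = 0.019), where the call was lost without control 3 (0.30, adjusted p = 0.11). Its signals were 40.5 to 82.1 in tumors and 80.6 to 118 in large hyperplasias, and it was lower in tumors by a log2 difference of -0.62 (adjusted p = 0.00011). Wnt11, a ligand of morphogenetic movements and kidney branching, fell by 0.51 in tumors (adjusted p = 0.0031), with signals of 22.1 to 58.3 in tumors and 53.5 to 76.4 in control tissue. Wnt2, which acts in placenta and lung, was not called in any tissue comparison, and 2 of the 11 tumors stood apart at 212 and 186 while the tumor median was 29.3.

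As DNA that precedes the starts of these genes, the 250 bases upstream were read from RefSeq (GRCm38.p6) for the 24 members that the table holds, in 27 windows. The TCF/LEF core CTTTGA, on either strand, occurred in 4 of the 27 windows (14.8%), those of Wnt5b, Wnt11, Fzd1 and Frzb, against 13.8% of 32851 promoters. The E-box CACGTG, a palindrome to which Myc with Max can bind, occurred in 2 windows (7.41%), those of Wnt9a and Fzd9, against 6.02%. Members held these letters about as often as promoters at large. The windows below are shown for the ligand raised in tumors only, Wnt9a (chr11:59306680-59306929, plus strand), and for Wnt5b, which fell (chr6:119449387-119449636, minus strand, 1 of 3 starts). Capitals mark the E-box of Wnt9a, at -228 from the start, and the TCF/LEF core of Wnt5b, at -71.
Wnt9a: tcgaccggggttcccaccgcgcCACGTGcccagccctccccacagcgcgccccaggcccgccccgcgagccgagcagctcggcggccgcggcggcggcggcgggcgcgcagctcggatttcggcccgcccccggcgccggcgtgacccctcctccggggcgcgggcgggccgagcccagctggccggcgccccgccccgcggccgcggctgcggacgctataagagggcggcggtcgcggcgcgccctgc
Wnt5b: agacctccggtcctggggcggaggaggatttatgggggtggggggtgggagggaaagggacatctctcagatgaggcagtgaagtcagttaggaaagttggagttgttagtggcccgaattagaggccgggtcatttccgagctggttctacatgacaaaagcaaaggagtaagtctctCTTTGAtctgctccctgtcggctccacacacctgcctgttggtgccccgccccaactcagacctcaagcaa

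Among the frizzleds, 3 of the 9 tested rose and 3 fell in tumors, 66.7% against 71.8% of all genes. In large hyperplasias 6 rose and 1 fell, 77.8% against 49.7%, and in small hyperplasias 3 rose and 1 fell, 44.4% against 34.6%. Fzd10, near background, is counted among the rises in tumors and in large hyperplasias. Fzd4, a receptor for Wnt proteins and for norrin that is required for retinal vessels, showed the widest difference of all members tested in each of these comparisons. Its signals were 2936, 2852, 2904 and 3859.6 in control tissue, 622, 1442, 831, 558 and 778 in small hyperplasias and 650.2, 398, 403, 507 and 412 in large hyperplasias. Tumors ranged from 65.9 over a median of 86.3 to 133. No sample of a lesion overlapped with control tissue, and no tumor overlapped with a hyperplasia. Fzd4 fell by 4.93 in tumors (SE 0.18, adjusted p = 2.0e-17), by 2.70 in large hyperplasias (SE 0.21, adjusted p = 2.4e-10) and by 1.94 in small hyperplasias (SE 0.21, adjusted p = 1.7e-07). Its 2 other probe sets fell by 4.48 and 2.26 in tumors. Tumors were lower than large hyperplasias by a log2 difference of -2.23 ± 0.17 (adjusted p = 1.8e-10), and large were lower than small hyperplasias by -0.76 ± 0.19 (adjusted p = 0.015).

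**Figure D2:**
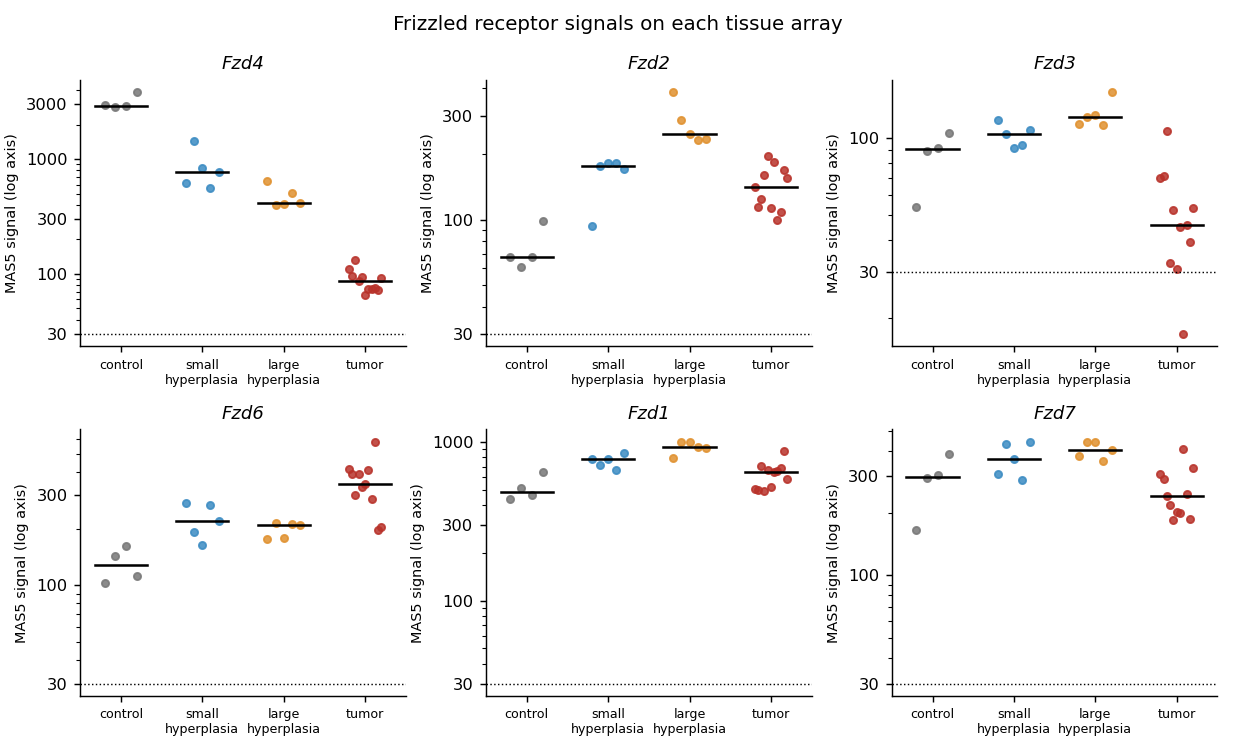
Signals of the frizzled receptors on each tissue array (log axis), by stage, with points for samples, black bars for medians and a dotted line at 30. Fzd4 lies between 2852 and 3859.6 in control tissue and between 65.9 and 133 in tumors, whereas Fzd1 and Fzd2 are highest in large hyperplasias.

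The adipocyte marker sums fell over the same stages as Fzd4. All 8 adipocyte markers fell in tumors, with a median log2 difference of -5.68, 6 of 8 fell in large hyperplasias (median -1.89) and 4 of 8 in small hyperplasias (median -1.13). All 8 endothelial markers fell in tumors as well, with a median of -0.90, 7 fell in large hyperplasias (median -1.07) and 5 in small hyperplasias (median -0.45). The part of either cell type in the fall of Fzd4 was not tested. The window before its start is shown because Fzd4 changed most, and it held neither motif (chr7:89404116-89404365, plus strand).
Fzd4: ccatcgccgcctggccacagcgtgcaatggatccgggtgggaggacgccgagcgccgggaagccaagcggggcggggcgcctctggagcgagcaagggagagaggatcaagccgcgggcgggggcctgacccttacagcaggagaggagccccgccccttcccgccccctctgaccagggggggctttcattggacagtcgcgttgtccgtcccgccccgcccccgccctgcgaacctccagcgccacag

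**Figure D3:**
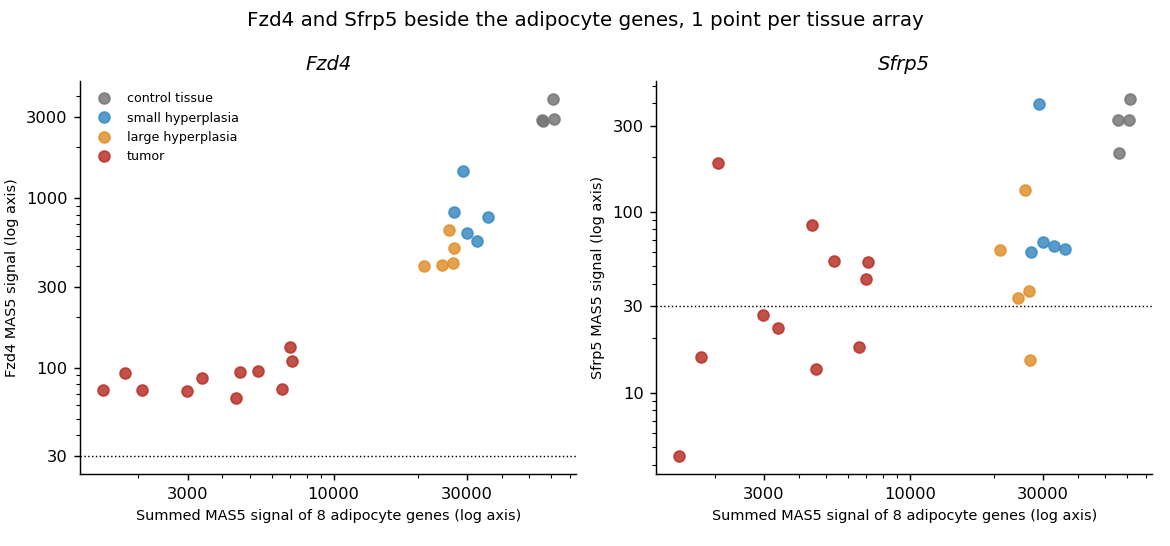
Signals of Fzd4 and Sfrp5 plotted against the summed signal of the 8 adipocyte markers on each tissue array (log axes), with colours for the stages. Control tissue, with marker sums of 55720 to 61394, has the highest Fzd4 signals, and tumors, with sums of 1491 to 7097, the lowest.

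Fzd1, Fzd2 and Fzd7 form a subfamily of frizzleds that can transmit canonical signals. Fzd2 was 67.3, 60.6, 67.6 and 99.0 in control tissue, 93.2, 176, 182, 182 and 172 in small hyperplasias and 385, 287, 248, 233 and 233 in large hyperplasias. Tumors lay between, with a lowest of 99.4, a median of 141 and a highest of 196. Large hyperplasias overlapped with no other stage. Fzd2 rose by 1.71 ± 0.20 in large hyperplasias (adjusted p = 1.6e-07), by 0.96 ± 0.20 in small hyperplasias (adjusted p = 0.00059) and by 0.81 ± 0.17 in tumors (adjusted p = 0.00017), and both other probe sets tested were called in the same direction in all 3 comparisons. For Fzd1, control tissue had signals of 436 to 651, small hyperplasias of 667 to 858, large hyperplasias of 794 to 1006 and tumors of 488 to 877. Fzd1 rose by 0.84 in large hyperplasias (adjusted p = 3.4e-05) and by 0.56 in small hyperplasias (adjusted p = 0.0043), whereas tumors were not called (0.26, adjusted p = 0.067), and its second probe set was called in none of the comparisons with control tissue. Fzd7 was 165, 294, 305 and 384 in control tissue and 376, 442, 438, 356 and 402 in large hyperplasias. Its rise of 0.52 in large hyperplasias (adjusted p = 0.045) was lost without any 1 of 8 arrays (adjusted p = 0.051 to 0.26), and without control 1 the log2 difference was 0.29.

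Fzd6, which with Fzd3 orients hairs and cells in planar polarity, was highest in tumors. It gave 102, 143, 161 and 112 in control tissue, 274, 191, 163, 268 and 218 in small hyperplasias and 176, 213, 178, 211 and 209.6 in large hyperplasias. In tumors the lowest signal was 196, the median 344 and the highest 579.6. Every lesion lay above every control sample. Fzd6 rose by 1.29 ± 0.19 in tumors (adjusted p = 1.7e-06), by 0.71 ± 0.22 in small hyperplasias (adjusted p = 0.015) and by 0.57 ± 0.22 in large hyperplasias (adjusted p = 0.036), and its second probe set rose by 1.12, 0.68 and 0.94. The call was lost in small hyperplasias without control 1 (0.62, adjusted p = 0.057) and in large hyperplasias without large hyperplasia 2, 4 or 5 or control 1 or 4 (adjusted p = 0.063 to 0.11).

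Fzd3, unlike Fzd6, was lower in tumors. It was 53.9, 88.7, 91.7 and 104 in control tissue, 118, 103, 91.1, 94.1 and 108 in small hyperplasias and 113, 120.1, 123, 112 and 151 in large hyperplasias, and in tumors the lowest was 17.3, the median 45.7 and the highest 106. Fzd3 fell by 0.63 in tumors against control tissue (SE 0.21, adjusted p = 0.01), and tumors lay below every large hyperplasia, with a log2 difference of -1.13 ± 0.20 (adjusted p = 3.7e-05). A second probe set fell as well, by 0.95 against control tissue and by 0.59 against large hyperplasias. In large hyperplasias Fzd3 was not called against control tissue, and its probe sets differed in sign there (0.50, adjusted p = 0.096, and -0.36, adjusted p = 0.099).

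Fzd5 and Fzd8 are close relatives. Fzd5, which acts in the eye and the gut, was called against control tissue in large hyperplasias only, with signals of 80.8 to 166 in large hyperplasias, against 53.3 to 75.6 in control tissue (0.71 ± 0.15, adjusted p = 0.0004). Fzd8 fell by 0.46 in tumors (adjusted p = 0.0016), where it was at 25.1 to 43.0, against 37.6 to 57.0 in control tissue. Fzd10 was near background. Its signals were 25.6 to 62.4 in tumors, and 62.5, 17.7, 6.44 and 12.4 in control tissue, where 3 of 4 samples were below 30. Fzd10 rose by 0.62 in tumors (adjusted p = 0.018), a call lost without control 3 (0.39, adjusted p = 0.14) or control 4 (0.51, adjusted p = 0.08), and without control 1 the difference was 0.995. With signals floored at 30 it was not called in tumors (0.15, adjusted p = 0.56) nor in large hyperplasias (0.48, adjusted p = 0.14), where it otherwise rose by 0.89 (adjusted p = 0.007).

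Both coreceptors were called lower in tumors, Lrp5 at signals near background. Lrp6, the broadly used coreceptor of canonical signaling, ranged from 192 to 276 in tumors, against 317 to 369 in control tissue, without overlap. It fell by 0.54 in tumors (SE 0.09, adjusted p = 8.9e-06), with a second probe set at -0.59, and by 0.34 in large hyperplasias (adjusted p = 0.0089), where the second probe set was not called (-0.05, adjusted p = 0.86). In small hyperplasias Lrp6 was not called (-0.01, adjusted p = 0.96). Lrp5, the coreceptor known for its part in bone mass, was below 30 on every lesion array and gave 41.9, 37.7, 19.9 and 23.4 in control tissue. Lrp5 thus passed the filter only through control tissue, and it is counted among the falls above. It was called lower in tumors (adjusted p = 0.0014), large hyperplasias (adjusted p = 0.041) and small hyperplasias (adjusted p = 0.021), but these levels permit no fold change. With a filter on the mean signal, or without control 1 or 2, Lrp5 was too dim to be tested. Its call was also lost without large hyperplasia 1, 3 or 4 (adjusted p = 0.056 to 0.12) and without small hyperplasia 3 (adjusted p = 0.053).

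Of the secreted frizzled-related proteins, 1 of the 4 tested rose and 2 fell in tumors, 75% against 71.8% of all genes. Sfrp5, which adipocytes secrete, was 422, 212, 321 and 322 in control tissue and 133, 61.6, 33.4, 15.1 and 36.4 in large hyperplasias. Small hyperplasias gave 68.1, 393, 60.3, 64.6 and 62.2. In tumors the lowest signal was 4.46, the median 27.1 and the highest 187, and 5 of 11 tumors reached 30. Tumors and large hyperplasias did not overlap with control tissue, whereas one small hyperplasia lay within its range. Sfrp5 fell by 2.67 in tumors (SE 0.48, adjusted p = 2.2e-05), by 2.39 in large hyperplasias (SE 0.55, adjusted p = 0.00087) and by 1.56 in small hyperplasias (SE 0.55, adjusted p = 0.031), and a second probe set fell in all 3. The call in small hyperplasias was lost without any 1 of small hyperplasias 1, 3, 4 and 5 and controls 1, 3 and 4 (adjusted p = 0.058 to 0.084). The adipocyte sums given above were also lower in each lesion stage than in control tissue. Between large hyperplasias and tumors all 8 adipocyte markers fell, and Sfrp5 was not called. Its medians there, 36.4 in large hyperplasias and 27.1 in tumors, are near background, which leaves little room for a further fall. Small hyperplasia 2, with Sfrp5 at 393, had an adipocyte sum of 29114. The part of adipocytes in the fall of Sfrp5 was not tested. The upstream window of Sfrp5, shown as a second member that fell against control tissue as the adipocyte markers did, held neither motif (chr19:42202253-42202502, minus strand).
Sfrp5: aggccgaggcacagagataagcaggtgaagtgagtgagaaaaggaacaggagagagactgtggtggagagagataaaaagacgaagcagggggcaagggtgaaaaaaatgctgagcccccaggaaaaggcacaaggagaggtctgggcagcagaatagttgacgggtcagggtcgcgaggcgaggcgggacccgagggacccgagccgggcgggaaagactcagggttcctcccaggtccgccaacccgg

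Sfrp4, a regulator of bone and phosphate balance, was at 247, 199.7, 167 and 211 in control tissue, 235, 152, 195, 205 and 235 in small hyperplasias, 126, 152, 192, 166 and 159 in large hyperplasias and 44.2 to 221 in tumors, with a tumor median of 98.5. It fell by 1.02 in tumors against control tissue (SE 0.26, adjusted p = 0.0011), and neither hyperplasia was called. Sfrp2, a product of stromal fibroblasts, varied most among tumors, from 109.8 over a median of 615 to 2119, against 224, 312, 301 and 351 in control tissue, 365, 212, 488, 711 and 545 in small hyperplasias and 238, 219.9, 299, 263 and 347 in large hyperplasias. Its difference in tumors was 0.92 ± 0.45 (adjusted p = 0.071) and was not called, with the tumors on both sides of the controls. Sums of 10 fibroblast markers ranged from 15665 to 32277 in tumors and from 26131 to 29730 in control tissue. The sums join opposite changes, since 5 of the 10 were called higher and 2 lower in tumors, 70% against 71.8% of all genes. The part of fibroblasts in the signals of Sfrp2 was not tested. Sfrp1, an antagonist made by epithelium and stroma, rose by 0.55 in tumors (adjusted p = 0.022), with signals of 133 to 395 in tumors and 133 to 157 in control tissue, and lost the call without control 1 (0.51, adjusted p = 0.063). Of the 4 other probe sets of Sfrp1 tested in tumors, 3 were called higher too and the remaining one was not called (0.47, adjusted p = 0.075).

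Frzb, also called secreted frizzled-related protein 3 and known from cartilage, was below background in control tissue, at 6.08, 4.11, 3.14 and 3.53. It was 22.3 to 45.4 in large hyperplasias and 21.0 to 62.3 in tumors, and small hyperplasias gave 18.0 to 28.0. In large hyperplasias Frzb was at least 1.12-fold higher than in control tissue (adjusted p = 2.2e-06), the bound being the mean log2 signal against 30, and with signals floored at 30 the difference was not called (0.25, adjusted p = 0.24). In tumors the median of 29.0 was below the level at which a test was made.

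The step between large hyperplasias and tumors was compared directly. In tumors 4 members rose and 12 fell among 24 tested, 66.7% against 54.6% of all genes (22.7% higher, 31.9% lower), with a median log2 difference of -0.30 against -0.07 over all genes. With quantile normalization 5 rose and 9 fell. Calls were then lost for Fzd8 (-0.15, adjusted p = 0.23), Wnt11 (-0.20, adjusted p = 0.19) and Lrp6 (-0.19, adjusted p = 0.067). The counts that follow are without it. Receptors made up 7 of the 12 falls, among 9 frizzleds tested, and 1 frizzled, Fzd6, rose by 0.72 (adjusted p = 0.0013), though its second probe set was not called (0.18, adjusted p = 0.4). Besides Fzd4 and Fzd3, the tumors were lower in Fzd2 (-0.89, adjusted p = 4.6e-05), Fzd7 (-0.66, adjusted p = 0.0021), Fzd5 (-0.64, adjusted p = 9.6e-05), Fzd1 (-0.59, adjusted p = 0.00016) and Fzd8 (-0.31, adjusted p = 0.023). For Fzd2 the tumors, at 99.4 to 196, lay below all large hyperplasias, at 233 to 385, and of its other probe sets one was called (-0.53, adjusted p = 0.0039) and one was not (-0.24, adjusted p = 0.14). Marker lists moved in this step too. All 8 adipocyte markers were lower in tumors (median -3.06), as were 5 of 9 leukocyte markers (median -0.62), 5 of 9 luminal markers (median -0.64) and 3 of 3 nerve and glia markers (median -1.06), while 1 leukocyte marker and 4 of 6 basal markers were higher (basal median 0.51). The leukocyte markers summed to 2631 to 5600 in tumors and 4806 to 6631 in large hyperplasias, the luminal markers to 1716 to 7313 in tumors and 3136 to 6607 in large hyperplasias, and the part of these cells in the falls of the frizzleds was not tested.

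**Figure D4:**
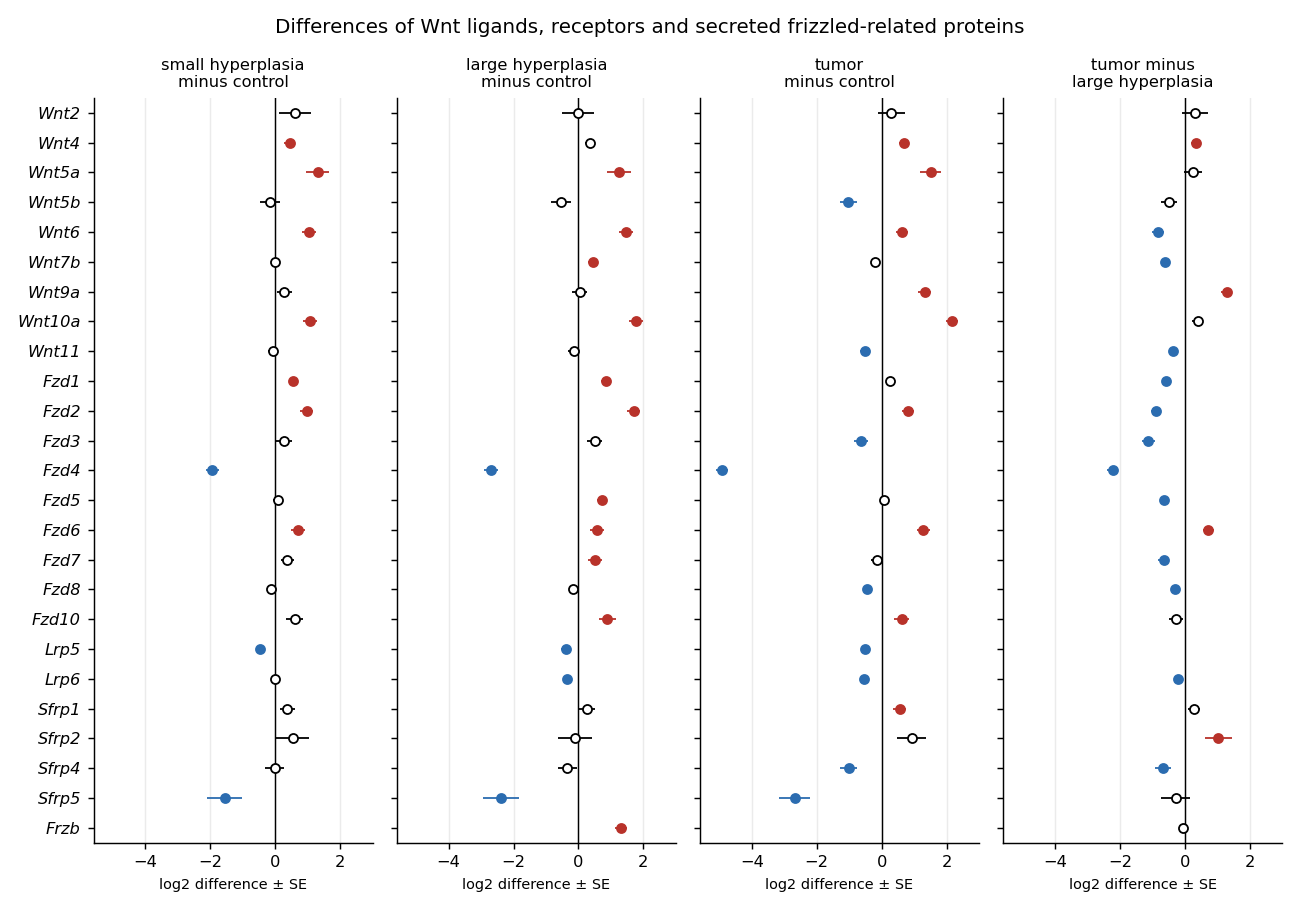
Log2 differences with standard errors for each member tested, in small hyperplasias, large hyperplasias and tumors against control tissue and in tumors against large hyperplasias, with red points called higher, blue points called lower and open points not called (fitted values of Lrp5 and of Frzb against control tissue, where a group is wholly below 30, are no folds). Fzd4 has the widest fall, -4.93 in tumors, and 7 of 9 frizzleds lie below 0 and are called in tumors against large hyperplasias.

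Of the ligands in that step, Wnt9a and Wnt4 rose and Wnt6, Wnt7b and Wnt11 fell, while Wnt10a was not called (0.40, adjusted p = 0.056). The second probe set of Wnt4 was not called. Wnt5b was not called by its brightest probe set, whereas its second probe set was called. Sfrp2 rose by 1.03 (adjusted p = 0.038), with the call lost without any 1 of tumors 2, 6, 8 and 10 and large hyperplasias 1 to 4 (adjusted p = 0.052 to 0.083). Sfrp4 fell by 0.67 (adjusted p = 0.019) and Lrp6 by 0.20 (adjusted p = 0.043). The call was lost for Sfrp4 without large hyperplasia 3 (adjusted p = 0.054), for Wnt4 (0.33, adjusted p = 0.035) without tumor 7 or 8 or large hyperplasia 1 or 3, where it was 0.215 without the last, and for Lrp6 without any 1 of 11 arrays, where it was -0.13 without large hyperplasia 5. Fzd8 lost its call without large hyperplasia 2 or 3 and Wnt11 without large hyperplasia 1, 3 or 4, and without large hyperplasia 3 the count of members called was 10.

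Between large and small hyperplasias 4 members rose and 2 fell among 24 tested, 25% against 9.64% of all genes (4.10% higher, 5.55% lower). Higher in large hyperplasias were Fzd2 (0.74, adjusted p = 0.013), Wnt10a (0.70, adjusted p = 0.03), Fzd5 (0.63, adjusted p = 0.0071) and Wnt7b (0.43, adjusted p = 0.049), and lower were Fzd4 and Lrp6 (-0.33, adjusted p = 0.032). Other probe sets did not carry all of these calls. Of Fzd2 the 2 others tested were at 0.49 (adjusted p = 0.068) and 0.31 (adjusted p = 0.21), the other of Lrp6 was on the other side of 0 (0.29, adjusted p = 0.32), and 1 of Fzd4 was at -0.55 (adjusted p = 0.082). Fzd4 and Fzd5 kept their call whichever array was left out. The other 4 were lost without 1 or more arrays, Fzd2 without small hyperplasia 1 (adjusted p = 0.051) or large hyperplasia 1 (adjusted p = 0.05). Wnt10a lost its call without small hyperplasia 1, 2 or 4 or large hyperplasia 1, 2 or 3 (adjusted p = 0.059 to 0.087). Lrp6 lost it without small hyperplasia 1, 2 or 4 or large hyperplasia 1, 2, 3 or 4 (adjusted p = 0.053 to 0.086). Wnt7b lost it without most single arrays, tumors among them (adjusted p = 0.051 to 0.12). The count of members called was 2 without small hyperplasia 1 or large hyperplasia 1. It was 3 without small hyperplasia 2 or 4 or large hyperplasia 2 or 3.

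Genes that work with the members were taken as lists. Of the genes for Wnt secretion and for other receptors, 6 rose and 2 fell among 13 in tumors, a share of 61.5% that is below the 71.8% of all genes. In large hyperplasias 10 rose and none fell among 13, 76.9% against 49.7% of all genes. In tumors the widest were Porcn, the acyltransferase that lipidates Wnt proteins (1.52, adjusted p = 2.4e-06), the coreceptor Ptk7 (1.28), Ryk (1.16) and the R-spondin receptor Lgr5 (-0.99). In large hyperplasias they were Lgr6 (2.71), Lgr5 (1.76), the polarity protein Vangl2 (1.55) and Ror2, a receptor for Wnt5a (1.10). Of other secreted or membrane antagonists and feedback genes, 10 of 13 rose in tumors, 76.9% against 71.8% of all genes called and 35.0% called higher, and none fell. In large hyperplasias 9 of 12 rose, 75% against 49.7% called and 26.8% called higher, and none fell. The Wnt-binding inhibitor Wif1 had a median signal of 22.0 in control tissue, 637.9 in large hyperplasias and 465.5 in tumors, and Dkk1, which blocks Lrp6, had medians of 182 in tumors and 3.46 in control tissue. Sostdc1, another LRP antagonist, rose by 1.89 in tumors and by 3.32 in large hyperplasias, and Dkk3, a secreted relative of Dkk1, rose by 1.88 in tumors. In large hyperplasias the Wnt deacylase Notum (2.42) and the Dishevelled-binding Nkd2 (2.14) rose as well. Of the cytoplasmic and nuclear components, 3 rose and 7 fell among 15 in tumors, 66.7% against 71.8% of all genes, with the kinase Csnk1a1 at 0.99, the Dishevelled gene Dvl1 at 0.78, the TCF factor Tcf7l2 at -0.94 and the β-catenin cofactor Bcl9l at -0.60. In large hyperplasias 4 rose and 2 fell among 16, 37.5% against 49.7%.

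In sorted basal cells the deleted gene was measured first. Myc signals were 141, 428 and 42.3 in Myc-deficient cells and 1479, 1677 and 1869 in control cells, so that each pool matched its label (log2 difference -3.40 ± 0.54), although after adjustment over 19737 probe sets not even Myc was called (adjusted p = 0.25). The basal keratin gene Krt5 was at 3346 to 4671 in Myc-deficient cells and 3556 to 3681 in control cells. The adipocyte genes Adipoq, Cidec, Retn and Lipe and the leukocyte genes Ptprc, Adgre1, Itgam, Cd3e and Ms4a1 were below 30 on all 6 arrays. Other genes of these lists were not. The adipocyte list summed to 1498 to 4557 in Myc-deficient cells and 1358 to 3616 in control cells, and of it Fabp4, also expressed by capillary endothelium, had 1287 to 4206 in Myc-deficient cells and 1142 to 3392 in control cells. The endothelial list summed to 121.3 to 844.6 in Myc-deficient cells and 172.3 to 584.5 in control cells. Of it Pecam1, which encodes CD31, was at 22.1 to 253.2 in Myc-deficient cells and 35.9 to 204.9 in control cells. Luminal markers summed to 3900 to 4851 in Myc-deficient cells and 3370 to 4255 in control cells. Fibroblast markers summed to 4583 to 5959 in Myc-deficient cells and 4871 to 5327 in control cells. The part of any of these cell types in the results below was not tested.

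Of the 36 members 20 were tested in the sorted cells, and the other 16 were below 30 on every array, among them Sfrp4, Sfrp5, Frzb and Wnt2. No member and none of the 19737 probe sets was called with limma, and the share over the 9512 genes tested was 0% as well. At an unadjusted p under 0.05 there were 1259 probe sets and 2 members, and the methods' rule of a ratio over 2 took 3125 probe sets and 1 member. Lrp6 was 2462, 2939 and 2626 in Myc-deficient cells, against 1726, 1922 and 1978 in control cells, without overlap (0.51, 95% interval 0.085 to 0.93, adjusted p = 0.73). Sfrp2 was 228, 293 and 199 in Myc-deficient cells, against 387, 559 and 306 in control cells, also without overlap (-0.74, 95% interval -1.45 to -0.02, adjusted p = 0.77). Wnt5a and Fzd8 did not overlap either. Wnt5a was 387, 386 and 412 in Myc-deficient cells and 375, 231 and 169.9 in control cells (0.65, 95% interval -0.08 to 1.38), and Fzd8 was 132, 98.8 and 17.0 in Myc-deficient cells and 178, 132 and 145 in control cells (-1.02, 95% interval -2.15 to 0.11).

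**Figure D5:**
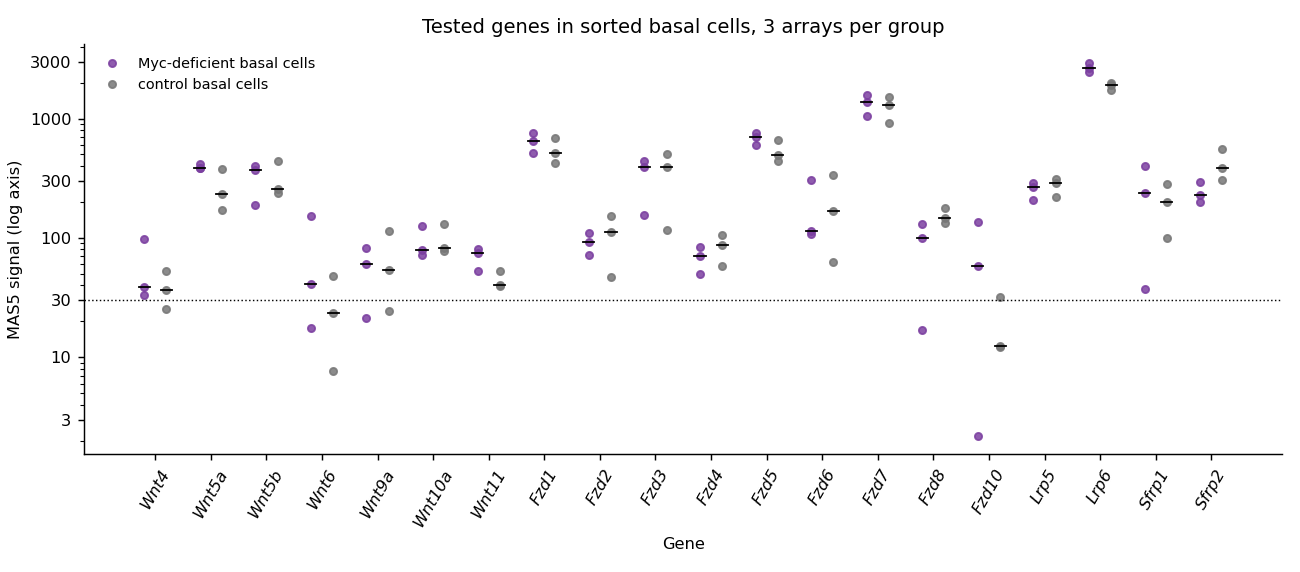
Signals of the members tested in sorted basal cells on each array (log axis), Myc-deficient cells left of control cells, with points for pools, black bars for medians and a dotted line at 30. Lrp6 lies higher in the 3 Myc-deficient pools, at 2462 to 2939, than in the 3 control pools, at 1726 to 1978, but no member passed the adjusted test.

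The other 16 members tested overlapped between the groups, and overlap was not counted over all genes. Within the 3 pairs of pools with the same number, 3 of these 16 were higher in every Myc-deficient pool (Fzd1, Fzd5 and Fzd7), 2 were lower in every one (Fzd4 and Lrp5), and 11 were mixed. Directions within pairs were not counted over all genes either, so neither count is read as particular to the members. The intervals and adjusted p-values given for sorted cells are from the limma fit without pairs. With the pool number as a block in limma no member was called, with adjusted p = 0.22 for Lrp6 and 0.33 for Sfrp2. Basal cells had Fzd7 signals of 1388, 1057 and 1561 without Myc and 1304, 910.3 and 1519.8 with it (0.11, 95% interval -0.45 to 0.68), and Fzd1 signals of 749, 515 and 654 without Myc and 688, 425 and 514 with it. Wnt10a was 79.8, 125 and 71.5 in Myc-deficient cells and 77.7, 131 and 81.5 in control cells (-0.06, 95% interval -0.92 to 0.80). Fzd4 was 83.1, 50.1 and 70.2 in Myc-deficient cells and 105, 58.1 and 87.7 in control cells. Because sorted cells were amplified with another kit, their signals are not set against those of tissue. With 3 pools a group the narrowest interval among the members was that of Lrp6.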

How the data were processed

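The deposited intensities are linear signals that the authors computed with MAS5 in Affymetrix Expression Console, as the submitters' processing notes name them, scaled to a target of 100 per array. Its version was not given in the sources used here. Tissue RNA was labelled with a one-cycle kit and sorted-cell RNA amplified with NuGEN kits, so both sets were fitted apart. Groups were taken from the labels, with 1 array per sample.

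Of 45101 probe sets, 64 controls were left out, and of the remaining 45037, 34945 carried 1 gene symbol, 932 several and 9160 none. Only probe sets with 1 symbol were named. limma 3.58.1 in R 4.3.3 (lmFit, eBayes with trend) took the log2 signals, after adding 16, of all 25 tissue arrays or all 6 sorted-cell arrays, without further normalization, and p-values were adjusted by Benjamini and Hochberg over all probe sets tested. The offset makes differences of dim genes smaller than the ratios of their signals. If all arrays of a group lay below 30, a fold is a lower bound against 30. The number of arrays limits the precision.

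Sample values are given for members called with a log2 difference of at least 1 either way and a group median of at least 60, and at most 4 called genes per other list are named. Values of further members were added after they had been seen. Members and lists were chosen with earlier results of these data known. In sorted cells the sample titles state no pairing, but deviations of the same replicate number correlated at 0.221 to 0.259 in all 3 pairs. The main fit left this number out, and it was used as a pair in the block fit and for directions within pairs. Upstream sequences are from RefSeq. The procedure was tested on simulated data. As alternatives the fits were repeated with quantile normalization, a floor at 30, no offset, no filter, a filter on the mean, fits of 2 groups, averaged probe sets, a replicate block, the methods' t-test and ratio rule, and leaving out each array.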

Additional observations from a re-analysis of the deposited data

Results flagged for a closer look

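Among the 12 members with the widest changes, a single sample stood apart in 5 of 36 groups of 4 or 5 samples by Dixon's test, where chance alone marks about 1 in 20. Wnt6 was 133.9 in small hyperplasia 5 and 69.95 to 83.25 in the others. Fzd2 was 93.24 in small hyperplasia 1 and 171.7 to 181.6 in the others. Fzd3 was 151.1 in large hyperplasia 5 and 112.5 to 123.2 in the others. Fzd4 was 3860 in control 4 and 2852 to 2936 in the others. Sfrp5 was 393.4 in small hyperplasia 2 and 60.29 to 68.14 in the others.

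For 3 members the differences from control tissue had opposite signs in tumors and in large hyperplasias, at least 1 of the 2 was called, and the direct test of tumors against large hyperplasias with limma was called, at a log2 difference of -0.625 for Wnt7b, -1.13 for Fzd3 and -0.657 for Fzd7. These 3 were lower in tumors than in large hyperplasias. Sfrp2 had opposite signs too, but neither difference from control tissue was called (0.92 in tumors and -0.11 in large hyperplasias), and it was higher in tumors than in large hyperplasias (1.03).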

How the results depend on the processing

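Of 65 called member differences, no alternative that gave a difference per gene reversed any. Averaged probe sets gave only counts of members called, so reversal was not checked there. These counts were 14 among 19 tested in tumors and 10 among 19 in large hyperplasias, both against control tissue. Of the 65, 45 kept their call in every fit with 1 array left out that tested them. Among them was Lrp5 in tumors against control tissue, which was not tested without control 1 or 2. Over 1619 repeats of these 65 differences with 1 array left out, many of which share a fit, 1524 calls were kept and 95 lost. Among the 65, 10 calls were lost with no filter, 5 with no offset, 4 with a floor at 30, 6 with quantile normalization, 6 with only the 2 groups compared, 1 with a filter on the mean, 21 with the methods' t-test and 36 with the methods' ratio over 2. The causes were not tested.

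By the ratio over 2, 7437 probe sets and 11 members passed in tumors against control tissue, 4204 and 9 in large hyperplasias and 2301 probe sets in small hyperplasias. It passed 3484 and 6 in tumors against large hyperplasias, 858 and 0 in large against small hyperplasias, and 3125 and 1 in Myc-deficient cells. The methods' t-test called 3705 probe sets and 5 members in small hyperplasias, and 418 and 0 in large against small hyperplasias, where no filter gave 3 members, limma 2259 probe sets and 6 members, and 9 members had an unadjusted p under 0.05.

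With 1 array left out, members called ranged from 16 to 20 in tumors against control tissue, 13 to 15 in large and 7 to 10 in small hyperplasias, 10 to 18 in tumors against large hyperplasias and 2 to 6 in large against small hyperplasias. For probe sets the last comparison gave 1246 to 2638, the lowest without small hyperplasia 1 and 1250 without large hyperplasia 1. Myc-deficient cells gave 0 to 10 probe sets, 10 without pool 3 of the Myc-deficient cells, and 0 members.

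Replicate numbers were not taken as pairs in tissue, since 27 correlations ran from -0.139 to 0.106. With the replicate block 9 of the 65 calls were lost, and in tumors against control tissue these were Wnt5b (-0.53, adjusted p = 0.12), Wnt11 (-0.31, adjusted p = 0.072), Fzd3 (-0.33, adjusted p = 0.17) and Sfrp1 (0.27, adjusted p = 0.13). In sorted cells the block changed no call, with 0 probe sets.

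Signals near 30 limit Lrp5, Fzd10, Frzb and Wnt5b.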
